A study of Homo sapiens with 60 samples.

Results

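The comparison described here pools the libraries of HepG2 cells treated with the lowest dose of 6 herbal extracts and sets them against the DMSO vehicle libraries. The members were chosen by their labels alone: the 17 Low libraries of the extracts that have replicates, and the 3 Vehicle libraries, 20 of the 60 libraries in all. HepG2 is a long-used cell line derived from a liver cancer. All cultures were treated for 24 h before polyadenylated RNA was sequenced. Low is 20 µg/mL. The Low libraries are 3 of SDT (Sibjeondaebo-tang) and 2 of PMT (Palmul-tang), which are herbal formulas extracted with water, and 3 each of Poria cocos, Atractylodis Rhizoma, Glycyrrhizae Radix and Panax ginseng, which are single herbs extracted with ethanol. Vehicle is 3 libraries treated with DMSO, at 0.1% in the sample labels and at 2% in the series text. How much DMSO the extract-treated cultures held is not given in the sources used here, so the extract and the solvent cannot be told apart. The sample descriptions also carry a set code, which is C1 for Vehicle, 8 for SDT and PMT, 9 for Poria and Atractylodis, and 10 for Glycyrrhiza and Ginseng. The titles of all 20 libraries carry the same batch name, BatchC. No set code holds both a Low and a Vehicle library, so set code and treatment cannot be told apart either. Nothing in the labels states that the replicates came from separate cultures, and p-values then measure only the spread between these samples.

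Cells adjust many of the gene groups described below together. Hypoxia-inducible factors, which prolyl hydroxylases mark for destruction while oxygen is present, drive glycolytic and pH-regulating genes. Heat shock factor drives the cytosolic chaperones, E2F factors drive the genes of DNA replication, and messages that begin with a pyrimidine tract, above all those of ribosomal proteins, are regulated together by mTOR. The oxidative phosphorylation complexes are built from subunits of both the nuclear and the mitochondrial genome, and liver cells rely on them heavily.

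All 10 hepatocyte markers had counts in all 20 libraries, with 171632 to 344355 counts of ALB, the serum albumin gene, in Low and 317723 to 353227 in Vehicle. Among markers of other cell types, DCN, COL1A2, TEK, KDR, PTPRC, CD3E, CFTR, NKX2-1 and SCGB1A1 were at 0 in all 20 libraries. LYZ, ACTA2, CD68, SOX9 and KRT19 had counts in every library of both groups, and LYZ, ACTA2 and KRT19 did not pass the test between groups. SOX9, a biliary and progenitor marker that liver cancer lines also express, averaged 196 CPM ± 18.9 in Low and 132 CPM ± 2.93 in Vehicle and rose by 0.57 on the log2 scale (edgeR adjusted p = 3.17e-11); it also differed among the Low extracts (edgeR adjusted p = 0.0466). CD68, a lysosomal marker of macrophages, rose by 0.24 (edgeR adjusted p = 0.0052). SOX9 and CD68 were chosen after their values were seen, and the part of other cell types in the results was not tested. Total counts were 19057230 to 30527396 in the Low libraries, and 27390854, 29913389 and 27797923 in the Vehicle libraries. In a bulk sample, fewer cells expressing a gene and less of its RNA per cell cannot be told apart.

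Several library-wide values moved with the groups and are given before the gene results. Transcripts of the mitochondrial genome made up 15.1% to 21.8% of the counts in Low (median 17.5%), and 13.6%, 13.4% and 15.2% in Vehicle. The ranges overlapped only at the third Vehicle library, and the means of 17.9% ± 1.9 and 14.1% ± 1 (SD, n = 17 and 3) differed in an exact two-sided permutation test (p = 0.00351, adjusted p = 0.00526 over 6 shares tested, smallest possible p 0.000877). The 100 most abundant genes took 35.4% to 40.9% of the counts in Low, and 33.7%, 33.5% and 35.2% in Vehicle, with no overlap (exact permutation test, adjusted p = 0.00526). This difference was 3.64 percentage points. With mitochondrially encoded genes left out and the 100 most abundant of the remaining genes taken, it was 0.882. The 2 values concern different sets of genes, and the first is not independent of the mitochondrial share. Ribosomal protein messages took 2.73% to 3.92% in Low, and 3.87%, 3.97% and 3.54% in Vehicle (exact permutation test, adjusted p = 0.00632), and these ranges overlapped. Their difference of -0.622 percentage points was -0.554 with mitochondrially encoded genes left out of the total (unadjusted exact permutation p = 0.014, against 0.00526 before). Nuclear-retained long noncoding RNAs averaged 0.175% ± 0.014 in Low and 0.172% ± 0.0028 in Vehicle, a difference that did not pass the test (exact permutation p = 0.874).

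A further library-wide value was found after the data had been seen. GENCODE 29 lists 3 lincRNA genes on the minus strand of chromosome 21 (GRCh38), antisense to the ribosomal RNA repeats and 1265 to 1271 bases before their 5.8S rRNA genes: ENSG00000280800 at chr21:8210384-8211306, ENSG00000280614 at chr21:8393419-8394341 and ENSG00000281181 at chr21:8437629-8438551. They are near-identical copies whose counts cannot be assigned to a copy with certainty. The strand setting of the counting is not given in the sources used here, so they cannot be told apart from ribosomal RNA of the other strand. Together they took 0.0166% to 0.162% of the counts in Low (median 0.0221%), and 0.274%, 0.337% and 0.264% in Vehicle, with no overlap. ENSG00000280614 was lower in Low by a log2 fold change of -2.32 (SE 0.48, edgeR adjusted p = 0.000132).

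Within Low, the share of these loci split the libraries in a way that followed set code only in part. The 5 libraries of set 8, the first Poria library and the first Atractylodis library held 0.0938% to 0.162%, and the other 10 Low libraries held 0.0166% to 0.0261%. At all doses together the share was 0.0856% to 0.21% in the 15 libraries of set 8, 0.0151% to 0.208% in the 18 of set 9 and 0.0164% to 0.0261% in the 18 of set 10. Its part in the results below was not tested.

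Poria Low 1 and Atractylodis Low 1 also stood apart in the hypoxia-inducible genes, and Poria Low 3 stood apart in transcript length. For each library, the rank correlation across 10431 genes between exonic length and the log2 level relative to the mean of the 20 libraries was computed as a description. It was -0.56 in Poria Low 3 and between -0.03 and 0.36 in the other 16 Low libraries, against -0.37, -0.38 and -0.27 in Vehicle. The lists in which they stood apart are also given without these 3 libraries, a choice made after seeing the data.

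**Figure D1:**
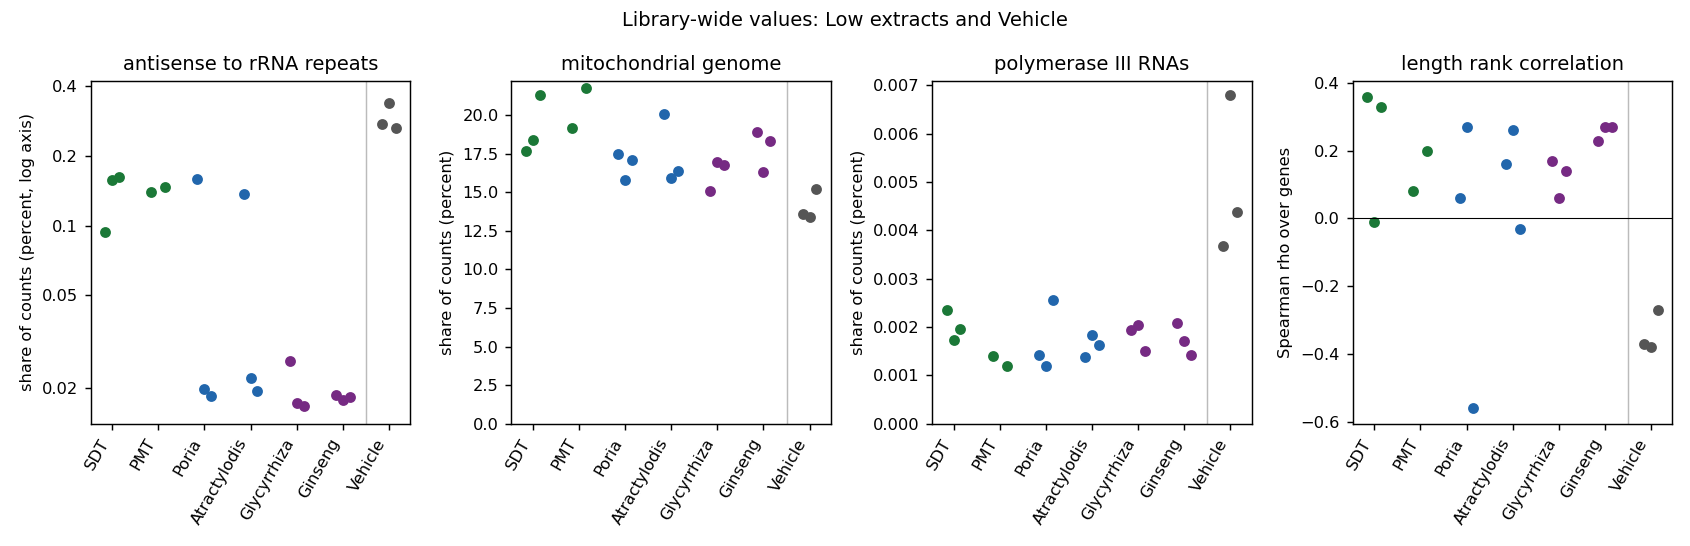
Each point is 1 library, grouped by Low extract with Vehicle at the right, and colours mark the set code. The first and second panels show the share of counts in the loci antisense to the rRNA repeats (percent, log axis) and in the mitochondrial genome (percent). The third shows the share in polymerase III and small structured noncoding RNAs (percent). The last shows the rank correlation of relative level with transcript length. Vehicle lies at 0.264% to 0.337% in the first panel. The Low point at -0.56 in the last panel is Poria Low 3.

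Low and Vehicle differed in many genes by small amounts. With the 6 extracts weighted equally, 3433 of the 16284 genes tested were higher in Low (21.1%) and 3412 were lower (21%), by edgeR's quasi-likelihood test with Benjamini-Hochberg adjusted p under 0.05. The absolute log2 fold change of these 6845 genes had a median of 0.25 and an upper quartile of 0.37, 613 of them were past 1.5-fold and 192 were past 2-fold. All 17 Low libraries lay above all 3 Vehicle libraries in 1213 genes (7.45%) and below them in 1343 genes (8.25%). The median log2 fold change over all genes tested was -0.0009, and gene lists are read against these shares and this median.

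**Figure D2:**
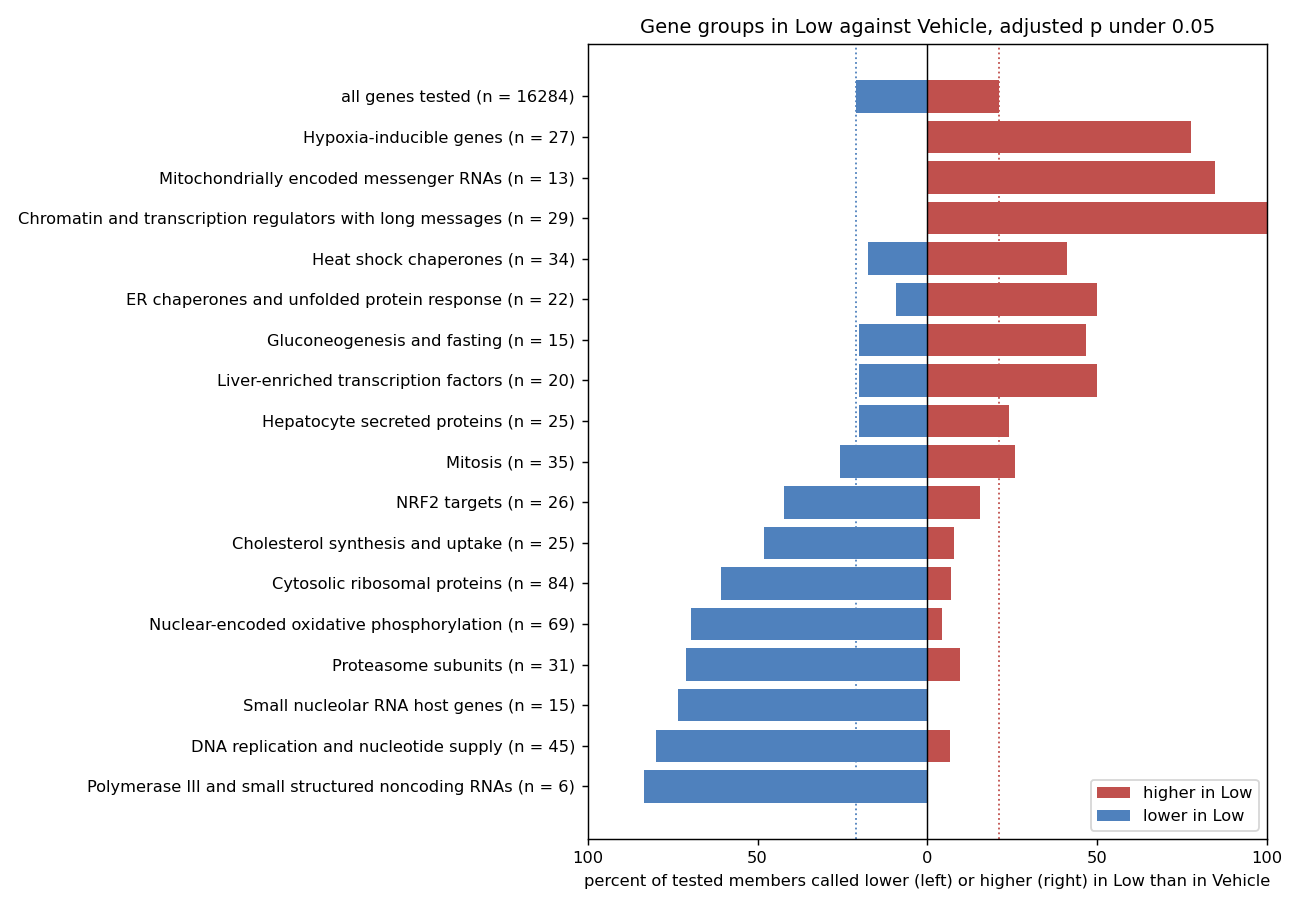
Bars show the percent of tested members of each gene group that were higher (right) or lower (left) in Low than in Vehicle at adjusted p under 0.05, with the number tested beside each name. Dotted lines mark the 21.1% and 21% of all genes tested; hypoxia-inducible genes, mitochondrial messenger RNAs and long chromatin messages extend to the right, and replication, proteasome, oxidative phosphorylation and ribosomal protein genes extend to the left.

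Hypoxia-inducible genes included PFKFB3, the largest rise among the protein-coding genes of at least 5 CPM whose groups did not overlap. Of 27 tested members, 21 were higher in Low and 0 were lower, and the median log2 fold change was 0.40. PFKFB3, which makes the fructose bisphosphate that activates glycolysis, had 3.31 to 11.6 CPM in Low (median 8.77), and 2.01, 2.43 and 2.21 CPM in Vehicle. Every Low library was above every Vehicle library, and the log2 fold change was 1.88 (SE 0.30, edgeR adjusted p = 2.27e-06). NDRG1, a stress gene induced by low oxygen, had 40.5 to 83 CPM in Low (median 75.4), and 31.8, 34.7 and 41 CPM in Vehicle, which overlapped at Poria Low 1. NDRG1 rose by 0.95 on the log2 scale (SE 0.21, edgeR adjusted p = 0.000193). CA9, a membrane carbonic anhydrase that regulates pH, had 3.11 to 6.41 CPM in Low (median 4.7), and 2.11, 2.18 and 3.26 CPM in Vehicle, overlapping at the lower end (log2 fold change 0.90, edgeR adjusted p = 0.000719). EGLN3, a prolyl hydroxylase that is itself a target of the pathway, was of low abundance, at 0.442 to 1.63 CPM in Low, and at 0.51, 0.584 and 0.577 CPM in Vehicle (log2 fold change 0.98, edgeR adjusted p = 0.0021).

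The promoters of PFKFB3 and CA9 are shown because both windows hold the core letters to which hypoxia-inducible factors bind; the window of EGLN3 does not. They are RefSeq windows on GRCh38.p14 from 250 bases before to 50 bases after the gene start, 5′ to 3′ on the strand of the gene, at chr10:6144671-6144970 (plus strand) for PFKFB3 and chr9:35673678-35673977 (plus strand) for CA9. Capitals mark ACGTG or GCGTG read on either strand, which begins 168 bases before the start in PFKFB3 and 18 bases before it in CA9.
PFKFB3: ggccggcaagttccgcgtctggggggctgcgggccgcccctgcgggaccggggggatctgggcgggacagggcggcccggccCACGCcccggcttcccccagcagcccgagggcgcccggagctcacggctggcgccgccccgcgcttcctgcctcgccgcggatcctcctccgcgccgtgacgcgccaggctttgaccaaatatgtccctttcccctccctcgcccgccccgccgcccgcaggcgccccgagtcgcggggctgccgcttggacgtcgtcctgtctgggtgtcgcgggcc
CA9: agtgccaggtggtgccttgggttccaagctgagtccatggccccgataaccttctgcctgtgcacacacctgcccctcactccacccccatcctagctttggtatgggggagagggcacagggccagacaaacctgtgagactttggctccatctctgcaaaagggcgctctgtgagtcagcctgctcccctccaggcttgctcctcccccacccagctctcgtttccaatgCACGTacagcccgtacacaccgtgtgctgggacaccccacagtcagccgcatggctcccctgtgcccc
At least 1 of these letters occurred in 17 of the 21 hypoxia-list promoters found (81%), in 48.4% of all 27305 promoters and in 62.2% of the promoters of tested genes. Lists that were mostly lower had similar shares, with 77.6% for ribosomal proteins, 78.6% for small nucleolar RNA host genes and 73.7% for DNA replication. The share was 61.8% for nuclear oxidative phosphorylation and 60% for heat shock chaperones, so these letters are not particular to the hypoxia list. A match is a description and not a measured binding site.

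The same 2 libraries were low in several of these genes. PFKFB3 stood at 3.42 CPM in Poria Low 1 and 3.31 CPM in Atractylodis Low 1, whereas the other 4 libraries of these extracts held 6.44 to 8.93 CPM. The median of the hypoxia list per library, as log2 relative to the Vehicle mean, was 0.10 and 0.04 in these libraries and 0.31 to 0.44 in the other 15 Low libraries, against -0.03, 0.00 and 0.00 in Vehicle. They are also the only Low libraries of set 9 with a raised share of the loci antisense to the rRNA repeats. Leaving out these 2 libraries and Poria Low 3, the list had 21 members higher and 0 lower, with a median of 0.44. The list median was 0.13 to 0.68 in the 17 Medium libraries and -0.21 to 0.82 in the 17 High libraries of the same extracts. PFKFB3 held 3.12 to 13.3 CPM in the Medium libraries and 1.44 to 16.7 CPM in the High libraries. The lowest of these High values lay below all Vehicle libraries.

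Genes of fasting outside that list included further rises. IGFBP1, an insulin-regulated binding protein for insulin-like growth factors that hypoxia also induces, had 132 to 298 CPM in Low (median 239), and 105, 114 and 135 CPM in Vehicle. The groups overlapped at Atractylodis Low 1 with 132 CPM, and IGFBP1 rose by 0.98 on the log2 scale (SE 0.20, edgeR adjusted p = 0.000106). PPARGC1A, the coactivator of mitochondrial and fasting genes, had 24.1 to 34.5 CPM in Low, and 21.8, 18.6 and 22.5 CPM in Vehicle, with no overlap (log2 fold change 0.51). Of 15 gluconeogenesis and fasting genes, 7 were higher and 3 were lower, with a median of 0.20.

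The other genes with large differences and no overlap between groups came from many functions. TMCC1, a membrane protein of the endoplasmic reticulum, had 39.7 to 72.3 CPM in Low (median 61.7), and 27.8, 28.3 and 28.4 CPM in Vehicle, and rose by 1.10 (SE 0.13, edgeR adjusted p = 4.65e-09). Its lowest Low values, 39.7 and 40.3 CPM, were those of Poria Low 1 and Atractylodis Low 1. TNS1, which links integrins to actin, and FILIP1L and PPP2R2C rose by 1.01, 1.02 and 1.01. Among the falls, S100A6, a calcium-binding protein, fell by 0.80 and TOMM7, a subunit of the mitochondrial import channel, fell by 0.75.

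Heat shock chaperones rose in part. Of 34 tested, 14 were higher and 6 were lower, with a median log2 fold change of 0.10, so the list as a whole stood closer to the background than its leading members. HSPA1A, the stress-inducible HSP70, had 102 to 136 CPM in Low (median 116), and 63.1, 52.1 and 55.9 CPM in Vehicle. No library overlapped, and HSPA1A rose by 1.02 on the log2 scale (SE 0.06, edgeR adjusted p = 7.39e-16); its reads may be shared with the near-identical HSPA1B. HSPA8, the constitutive HSP70, had 1468 to 1738 CPM in Low, and 1149, 1038 and 1001 CPM in Vehicle, again with no overlap (log2 fold change 0.59, SE 0.03, edgeR adjusted p = 1.3e-16). DNAJB4, an HSP40 partner of HSP70, rose by 0.58. HSPA1A stood at 88.7 to 129 CPM in the 17 Medium libraries and 85.6 to 122 CPM in the 17 High libraries, all above Vehicle. The chaperone list did not keep to that side. Its median per library, as log2 relative to the Vehicle mean, was 0.01 to 0.20 in Medium and -0.23 to 0.23 in High. The Vehicle libraries stood at 0.03, 0.00 and -0.03.

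Both HSP70 promoters are shown because they hold the inverted repeat read by heat shock factor. Capitals mark GAANNTTC, which reads the same on both strands and begins 106 bases before the start in HSPA1A (chr6:31815293-31815592, plus strand), and 230 and 50 bases before it in HSPA8 (chr11:123062087-123062386, minus strand), in the same RefSeq windows of GRCh38.p14.
HSPA1A: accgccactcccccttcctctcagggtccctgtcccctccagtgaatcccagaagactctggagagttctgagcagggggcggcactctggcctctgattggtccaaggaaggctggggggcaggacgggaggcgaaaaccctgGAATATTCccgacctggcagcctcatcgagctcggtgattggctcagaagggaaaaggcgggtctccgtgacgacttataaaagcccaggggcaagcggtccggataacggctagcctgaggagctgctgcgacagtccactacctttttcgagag
HSPA8: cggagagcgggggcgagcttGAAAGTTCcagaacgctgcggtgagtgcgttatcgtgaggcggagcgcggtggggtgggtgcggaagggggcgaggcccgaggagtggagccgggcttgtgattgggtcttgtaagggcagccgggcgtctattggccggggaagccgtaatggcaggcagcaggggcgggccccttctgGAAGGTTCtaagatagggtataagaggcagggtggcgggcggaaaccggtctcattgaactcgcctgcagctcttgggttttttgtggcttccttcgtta
The motif occurred in 10 of the 30 chaperone promoters found (33.3%), in 6.87% of all promoters and in 4.73% of those of tested genes.

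Endoplasmic reticulum chaperones and unfolded protein response genes had 11 of 22 members higher and 2 lower (median 0.12). SYVN1, an ubiquitin ligase of protein degradation at the endoplasmic reticulum, had 78.3 to 100.2 CPM in Low, and 68.7, 62.1 and 69.1 CPM in Vehicle, without overlap (log2 fold change 0.43). HERPUD1, which works with it, rose by 0.37. SEC61B, a subunit of the translocation channel with a short message, fell by 0.36.

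Mitochondrial messages and their nuclear partners moved in opposite directions. Of 13 mitochondrially encoded messenger RNAs tested, 11 were higher in Low and 0 were lower, with a median log2 fold change of 0.46, whereas of 69 nuclear-encoded subunits 3 were higher and 48 were lower, with a median of -0.27. MT-ND2, a subunit of complex I, had 9054 to 16980.5 CPM in Low (median 11541), and 7488, 7273 and 8824 CPM in Vehicle, with no overlap. It rose by 0.64 on the log2 scale (SE 0.12, edgeR adjusted p = 1.87e-05), and MT-ND4 and MT-ND6 of the same complex rose by 0.61 and 0.62; MT-ND6 lost its call without the first Vehicle library (edgeR adjusted p = 0.0635). Both mitochondrial ribosomal RNAs were higher as well. The list median per library was 0.08 to 0.88 in Low, against -0.10, -0.07 and 0.14 in Vehicle, and Poria Low 2 at 0.08 and Glycyrrhiza Low 1 at 0.14 were not above the third Vehicle library.

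Among the nuclear genes of respiration, NDUFA1, an accessory subunit of complex I, had 9.72 to 15.6 CPM in Low (median 13), and 23.2, 27.4 and 22.4 CPM in Vehicle. It fell by 0.94 on the log2 scale with no overlap (SE 0.11, edgeR adjusted p = 7.77e-09). UQCRQ and UQCR11 of complex III and COX5B of complex IV fell by 0.80, 0.66 and 0.66. NDUFA1 held 10.7 to 15.3 CPM in the Medium libraries and 8.61 to 20.5 CPM in the High libraries, all below Vehicle. The per-library list median was lowest in SDT Low 3 at -0.41 and highest in Poria Low 3 at -0.03, against 0.00, 0.05 and -0.06 in Vehicle, so Poria Low 3 lay inside the Vehicle range. Without the 3 libraries that stood apart, 2 subunits were higher and 54 were lower.

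**Figure D3:**
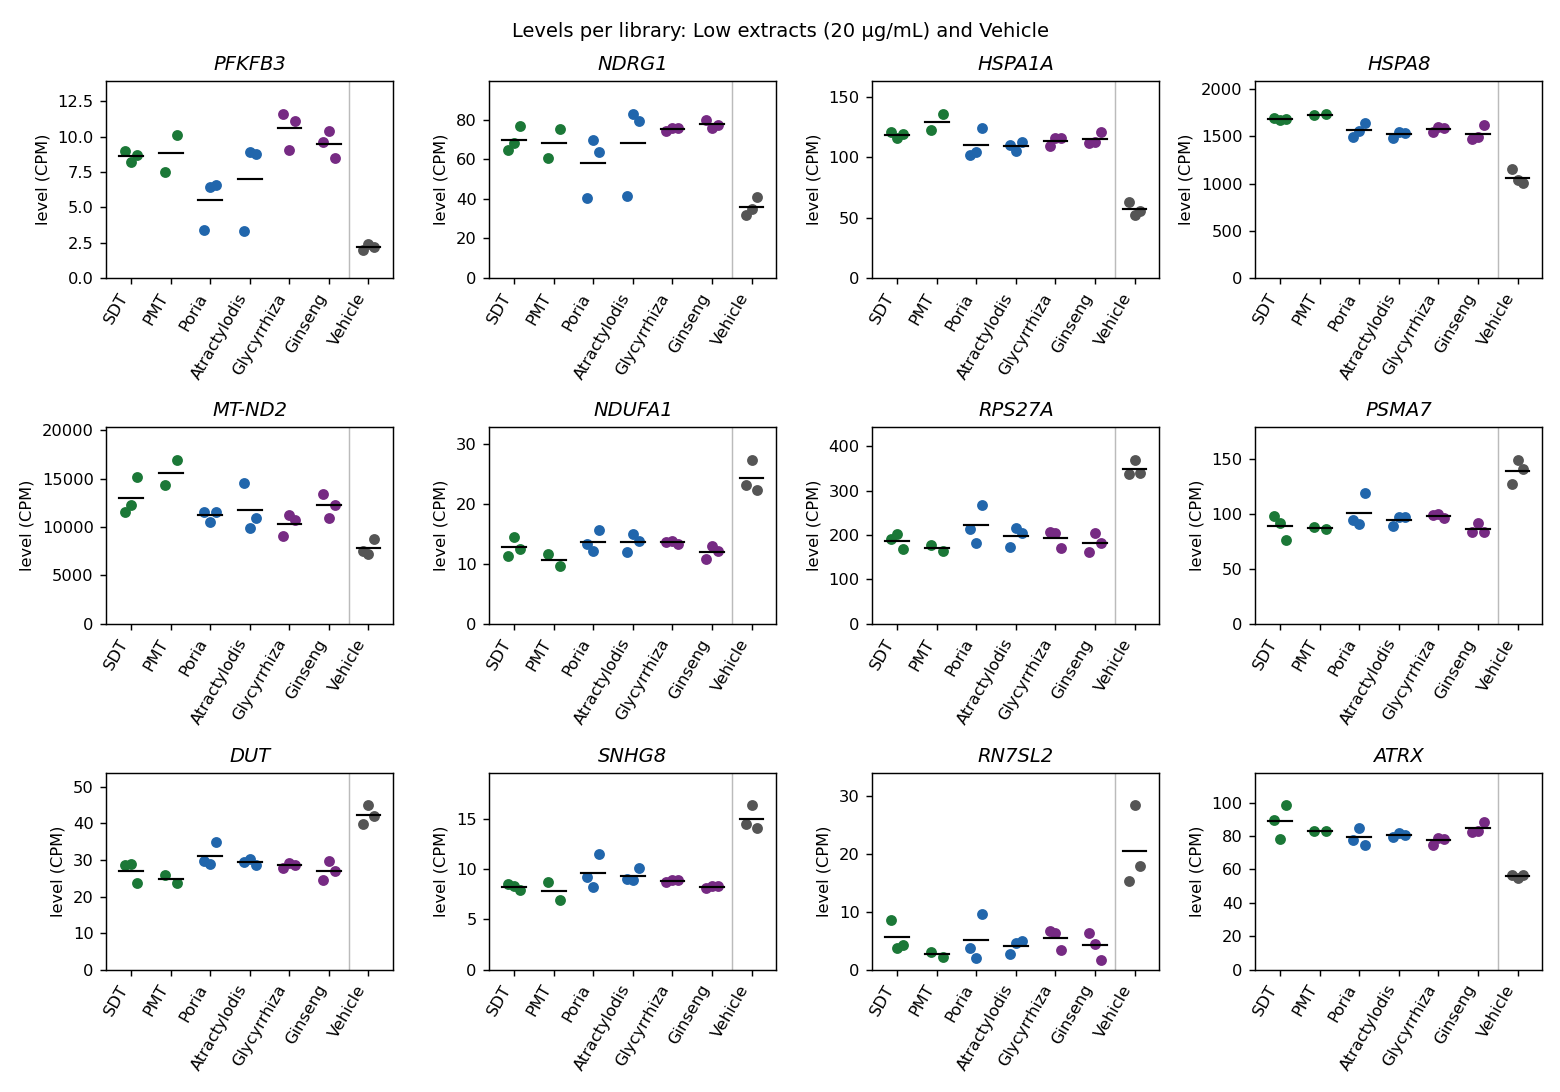
Points are levels of 12 genes in CPM in each library, by Low extract with Vehicle at the right, and lines are group means; each vertical axis starts at 0. In all panels except NDRG1 no Low library overlaps Vehicle, and the lower Poria and Atractylodis points of PFKFB3 and NDRG1 are replicate 1.

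Ribosomal protein messages were mostly lower. Of 84 tested, 51 were lower and 6 were higher, with a median log2 fold change of -0.21. RPS27A, which encodes a ubiquitin fused to a protein of the small subunit, had 162 to 268 CPM in Low (median 190), and 338, 369.5 and 339 CPM in Vehicle, and fell by 0.86 with no overlap (SE 0.08, edgeR adjusted p = 1.23e-11). RPLP1, a protein of the large subunit stalk, had 136 to 246 CPM in Low, and 258, 366 and 286 CPM in Vehicle (log2 fold change -0.80). RPS12 and RPL9 fell by 0.79 and 0.71, also with no overlap. RPS27A was also below Vehicle at the other doses, at 174 to 222 CPM in the Medium libraries and 161 to 232 CPM in the High libraries. The list median per library was 0.07 in Poria Low 3, above all Vehicle libraries (0.03, 0.04 and -0.09), and -0.36 to -0.14 in the other Low libraries. Without the 3 libraries that stood apart, 6 were higher and 56 were lower (median -0.23). Many ribosomal protein genes have processed pseudogenes that can share reads with them.

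Small nucleolar RNA host genes, whose spliced messages are translated little and whose introns hold the guides of ribosomal RNA modification, had 11 of 15 members lower and 0 higher (median -0.41). SNHG8 had 6.96 to 11.5 CPM in Low (median 8.68), and 14.5, 16.3 and 14.1 CPM in Vehicle, and fell by 0.79 with no overlap (SE 0.08, edgeR adjusted p = 5.71e-11). SNHG5 and SNHG29 fell by 0.58 and 0.48. Genes of ribosome biogenesis outside the ribosome had 13 of 27 members lower and 5 higher (median -0.08), and translation factors had 13 of 34 lower and 7 higher (median -0.04).

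Start windows are shown for the 4 ribosomal protein genes named above and the host genes SNHG8 and SNHG5, because messages of these classes often begin with a pyrimidine tract. Each runs from 10 bases before to 20 bases after the RefSeq start on GRCh38.p14, and capitals mark the unbroken run of pyrimidines from a C at the start. A run of a C and at least 4 further pyrimidines is counted as a tract. Positions are chr2:55231893-55231922 for RPS27A, chr15:69452808-69452837 for RPLP1, chr6:132814559-132814588 for RPS12 and chr4:118278752-118278781 for SNHG8 (plus strand), and chr4:39458903-39458932 for RPL9 and chr6:85678714-85678743 for SNHG5 (minus strand).
RPS27A: agtgacacacaagacccagactcttcccta
RPLP1: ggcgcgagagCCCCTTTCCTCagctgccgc
RPS12: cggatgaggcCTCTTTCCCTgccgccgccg
RPL9: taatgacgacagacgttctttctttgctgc
SNHG8: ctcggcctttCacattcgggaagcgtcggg
SNHG5: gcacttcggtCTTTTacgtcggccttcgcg
The tract occurred at the start of 44 of the 67 ribosomal protein promoters found (65.7%) and 4 of 14 of host genes (28.6%). Translation factors, whose median log2 fold change was only -0.04, had it in 11 of 26 promoters (42.3%). The tract occurred in 8 of 55 promoters of nuclear oxidative phosphorylation genes (14.5%) and 4 of 38 of DNA replication genes (10.5%). It occurred in 4.04% of all promoters and 5.37% of those of tested genes. It was absent from the annotated starts of RPS27A, RPL9, SNHG8, SNHG7 and SNHG29, and these letters alone say nothing of how the genes are regulated.

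Proteasome subunits were mostly lower, and NRF2 targets, which include many redox genes, had more members lower than higher. Of 31 proteasome genes, 22 were lower and 3 were higher, with a median of -0.24, and without the 3 libraries that stood apart 23 were lower and 2 were higher. The list median was -0.06 in Poria Low 3, next to -0.05 in the third Vehicle library. PSMA7, a subunit of the core particle, had 76.4 to 119 CPM in Low (median 92.2), and 127, 149.6 and 141 CPM in Vehicle, and fell by 0.59 with no overlap (SE 0.07, edgeR adjusted p = 7.54e-09). Of 26 NRF2 targets, 11 were lower (42.3%) and 4 were higher (15.4%), with a median of -0.10. PRDX1, a peroxidase of hydrogen peroxide, had 216 to 306 CPM in Low, and 398, 411 and 397 CPM in Vehicle (log2 fold change -0.64, SE 0.06, edgeR adjusted p = 6.15e-12). SRXN1, which repairs peroxiredoxins, and TXNRD1, the thioredoxin reductase, fell by 0.35 and 0.29. SLC7A11, the cystine transporter on the same list, had 31.1 to 42.8 CPM in Low, and 29.8, 26 and 28.2 CPM in Vehicle, and rose by 0.45 with no overlap (edgeR adjusted p = 7.38e-08). PRDX1 held 230.5 to 327 CPM in the Medium libraries and 222 to 334 CPM in the High libraries, all below Vehicle.

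DNA replication and nucleotide supply genes were lower in nearly the whole list. Of 45 tested, 36 were lower and 3 were higher, with a median log2 fold change of -0.19. DUT, which keeps uracil out of DNA by cleaving dUTP, had 23.6 to 34.9 CPM in Low (median 28.7), and 39.9, 44.9 and 42 CPM in Vehicle, and fell by 0.60 with no overlap (SE 0.06, edgeR adjusted p = 3.37e-10). RPA3 of the single-strand binding complex and UNG, which removes uracil from DNA, fell by 0.57 and 0.43. E2F1, the transcription factor of this program, had 37.6 to 49 CPM in Low, and 54.2, 61.9 and 58.3 CPM in Vehicle (log2 fold change -0.51, SE 0.06, edgeR adjusted p = 1.88e-09). TTTCCCGC or TTTGGCGC, letters bound by E2F factors, occurred on either strand in 15 of the 38 replication promoters found (39.5%), in 2.31% of all promoters and in 3.55% of those of tested genes; the windows of DUT and UNG held neither.

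The G1 list leaned lower, and the mitosis list did not. Of 19 G1 cyclins, kinases and inhibitors, 9 were lower (47.4%) and 3 were higher (15.8%), with a median of -0.21. Over all genes tested, 21% were lower and 21.1% were higher. With length and GC content modelled, 10 of the G1 genes were lower and 2 were higher. CDC25A and CDK4, which drive entry into S phase, fell by 0.39 and 0.38, whereas CDK6, with a far longer message, rose by 0.38. Of 35 mitosis genes, 9 were higher and 9 were lower (median 0.05). CENPE and CENPF, long kinetochore genes, rose by 0.47 and 0.39, and MAD2L1 of the spindle checkpoint and CCNB1, a mitotic cyclin, fell by 0.47 and 0.38.

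Liver genes were divided. Of 20 liver-enriched transcription factors, 10 were higher and 4 were lower (median 0.07). ONECUT1, a factor of hepatocyte differentiation, had 19.6 to 31.5 CPM in Low (median 24.7), and 12.9, 14.8 and 14.9 CPM in Vehicle, and rose by 0.82 with no overlap (SE 0.09, edgeR adjusted p = 4.69e-10). PROX1 and FOXA2 rose by 0.53 and 0.41, and CEBPA fell by 0.39. Among 25 secreted hepatocyte proteins, 6 were higher and 5 were lower (median -0.01), near the background in both directions. APOB, the long apolipoprotein of low-density lipoprotein, rose by 0.34 and APOA1, the short one of high-density lipoprotein, fell by 0.28. Of 25 cholesterol synthesis and uptake genes, 12 were lower (48.0%) and 2 were higher (8.0%), with a median of -0.09. TM7SF2 and MVK, both enzymes of sterol synthesis, fell by 0.33 and 0.23.

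The list of polymerase III and small structured noncoding RNAs had a median log2 fold change of -1.98, the lowest of the lists described here. Most of these RNAs carry no poly(A) tail. They took 0.0012% to 0.00256% of the counts in Low, and 0.00368%, 0.00681% and 0.00437% in Vehicle (exact two-sided permutation test, p = 0.00175, adjusted p = 0.00526). Of the 6 of 18 that were abundant enough to test, 5 were lower and 0 were higher. RN7SL2, an RNA of the signal recognition particle, had 1.67 to 9.59 CPM in Low (median 4.28), and 15.3, 28.3 and 17.8 CPM in Vehicle, and its log2 fold change was -2.23 (SE 0.31, edgeR adjusted p = 1.28e-07). The near-identical RN7SL1 fell by 2.01. RMRP and RPPH1, the RNAs of RNase MRP and RNase P, fell by 2.38 and 1.96 with no overlap between groups. RMRP rests on few reads, with 0 to 5 counts in a Low library and 9 to 24 in a Vehicle library. MALAT1, a nuclear RNA of polymerase II, had 378 to 791 CPM in Low, and 379.7, 371 and 403 CPM in Vehicle, and its rise of 0.34 (edgeR adjusted p = 0.0228) did not pass once length and GC content were modelled (edgeR adjusted p = 0.127). MALAT1 also lost its call without the first and without the second Vehicle library (edgeR adjusted p = 0.0866 and 0.106).

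The chromatin and transcription regulators on the list of long messages all rose: 29 of 29 were higher, with a median log2 fold change of 0.32. ATRX, a chromatin remodeller, had 74.6 to 98.3 CPM in Low (median 82.1), and 56.5, 54.8 and 56.5 CPM in Vehicle, with no overlap (log2 fold change 0.56, SE 0.05, edgeR adjusted p = 5.16e-11). CREBBP, an acetyltransferase, and NIPBL, the cohesin loader, each rose by 0.49. The list median per library was -0.05 in Poria Low 3 and 0.25 to 0.41 in the other Low libraries, against -0.03, -0.04 and 0.07 in Vehicle, so Poria Low 3 lay below all Vehicle libraries. Without the 3 libraries that stood apart, 29 were higher and 0 were lower (median 0.33). The list was drawn up for its length, and 27 of its genes lay in the longest of 5 equal classes of the genes tested, where 42.1% of the other genes were higher and 11.2% were lower.

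Transcript length and GC content moved with the calls across all genes. In 5 equal classes from the shortest to the longest exonic length, 8.3%, 11.0%, 17.7%, 26.1% and 42.6% of genes were higher in Low, and 21.2%, 28.7%, 24.8%, 19.4% and 11.1% were lower. In 5 classes from the lowest to the highest GC content, 33.7%, 25.5%, 20.0%, 14.7% and 11.8% were higher. In a fit that removed smooth trends of length and GC content from each library, 3085 genes were higher (18.9%) and 3458 were lower (21.2%). Under that fit 24 of the 29 long chromatin messages were higher, with a median of 0.19. Counts and medians were close to those above for hypoxia-inducible genes (20 higher, 0 lower, 0.39), nuclear oxidative phosphorylation (3 higher, 46 lower, -0.23), ribosomal proteins (9 higher, 47 lower, -0.20), DNA replication (2 higher, 36 lower, -0.18), mitochondrial messages (12 higher, 0 lower, 0.51) and small nucleolar RNA hosts (0 higher, 11 lower, -0.37).

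**Figure D4:**
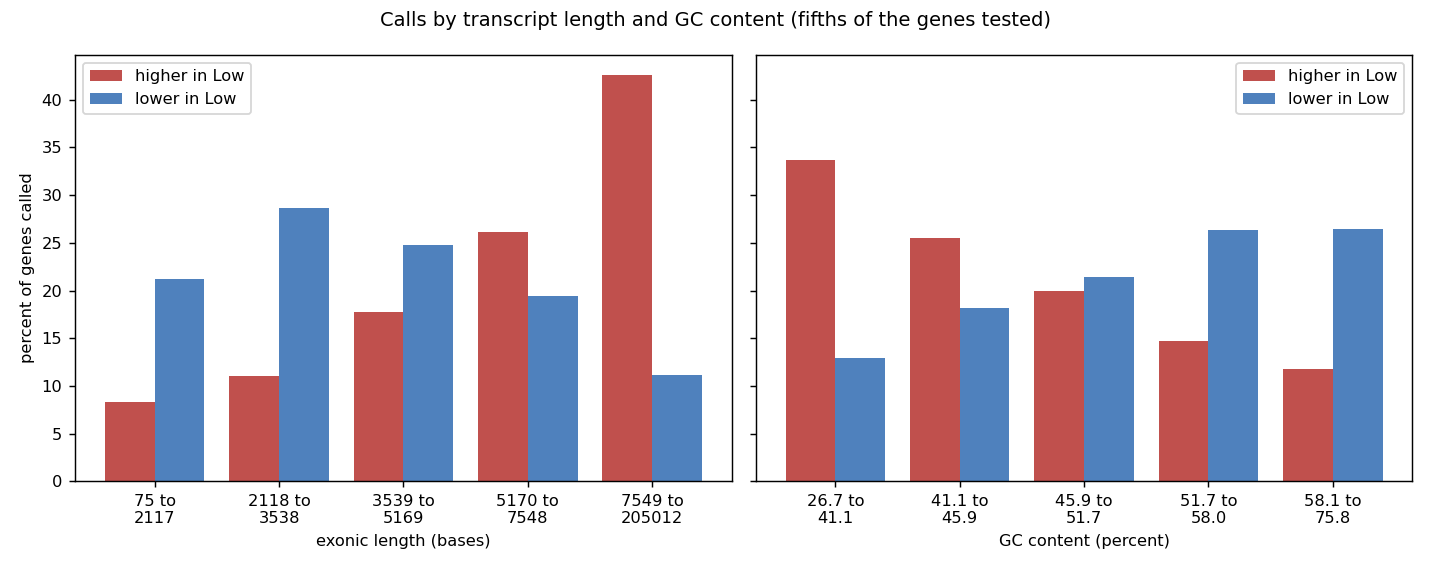
Bars give the percent of genes higher or lower in Low than in Vehicle within 5 equal classes of the genes tested, by exonic length in bases (left) and GC content in percent (right). The share of genes higher in Low grows from 8.3% to 42.6% with length and shrinks from 33.7% to 11.8% with GC content.

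Each set and each extract was also compared with Vehicle, and all these comparisons share the 3 Vehicle libraries. By set code, 6550 genes differed in set 8 (40.2%), 4785 in set 9 (29.4%) and 6137 in set 10 (37.7%). By extract, the number was 5849 in SDT (35.9%), 5069 in PMT (31.1%), 3129 in Poria (19.2%), 4380 in Atractylodis (26.9%), 4836 in Glycyrrhiza (29.7%) and 5436 in Ginseng (33.4%). In the order SDT, PMT, Poria, Atractylodis, Glycyrrhiza and Ginseng, the median log2 fold change of the hypoxia list was 0.41, 0.37, 0.31, 0.31, 0.47 and 0.44, and that of nuclear oxidative phosphorylation was -0.33, -0.33, -0.17, -0.24, -0.24 and -0.32. In the same order, mitochondrial messages stood at 0.59, 0.73, 0.28, 0.44, 0.30 and 0.46, and DNA replication genes at -0.22, -0.20, -0.15, -0.21, -0.20 and -0.24. Poria had the smallest absolute value in nuclear oxidative phosphorylation, mitochondrial messages and DNA replication. Its library nearest the Vehicle mean was Poria Low 3 in nuclear oxidative phosphorylation (-0.03) and Poria Low 1 in DNA replication (-0.13). In mitochondrial messages it was Poria Low 2 (0.08), which is not among the 3 libraries that stood apart. Differences between extracts in the list medians were not tested. Without the second Vehicle library the counts were 2990 in set 9, 1657 in Poria and 2888 in Atractylodis. The Poria count was 1744 without Poria Low 2, and the PMT count was 2735 without PMT Low 3, which leaves 1 PMT library that is assumed to vary like the other groups.

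The 6 Low extracts differed from each other in far fewer genes than from Vehicle. A test over all 6 that uses no Vehicle library found 81 genes (0.497%), of which 58 also differed between Low and Vehicle. The 15 pairs of extracts, with 244260 gene tests, gave 331 calls together (0.136%), from 0 to 160 per pair with a median of 3. The pair with 160 was Poria and Glycyrrhiza, followed by 57 for SDT and Poria and 37 for Poria and Ginseng. SDT and Ginseng, SDT and PMT, Poria and Atractylodis, and PMT and Ginseng had 0 calls by edgeR. Over the 15 pairs, 541 to 2515 genes had an unadjusted p under 0.05 and DESeq2 called 0 to 349. The 3 pairs that share a set code had 0, 0 and 10 calls, and the 12 pairs that do not had 0 to 160. These counts depend on single libraries and on the fit: the pairs gave 1752 calls together without Poria Low 2, 754 without Poria Low 1, 689 without SDT Low 2, 172 without Poria Low 3, 175 to 187 without any 1 Glycyrrhiza library, and 3625 with no filter on low counts. The 81 genes among Low became 229 without Poria Low 2, 157 without Atractylodis Low 1, 53 without SDT Low 3 and likewise without Atractylodis Low 2, 41 without Poria Low 3, and 15 to 25 without any 1 Glycyrrhiza library.

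**Figure D5:**
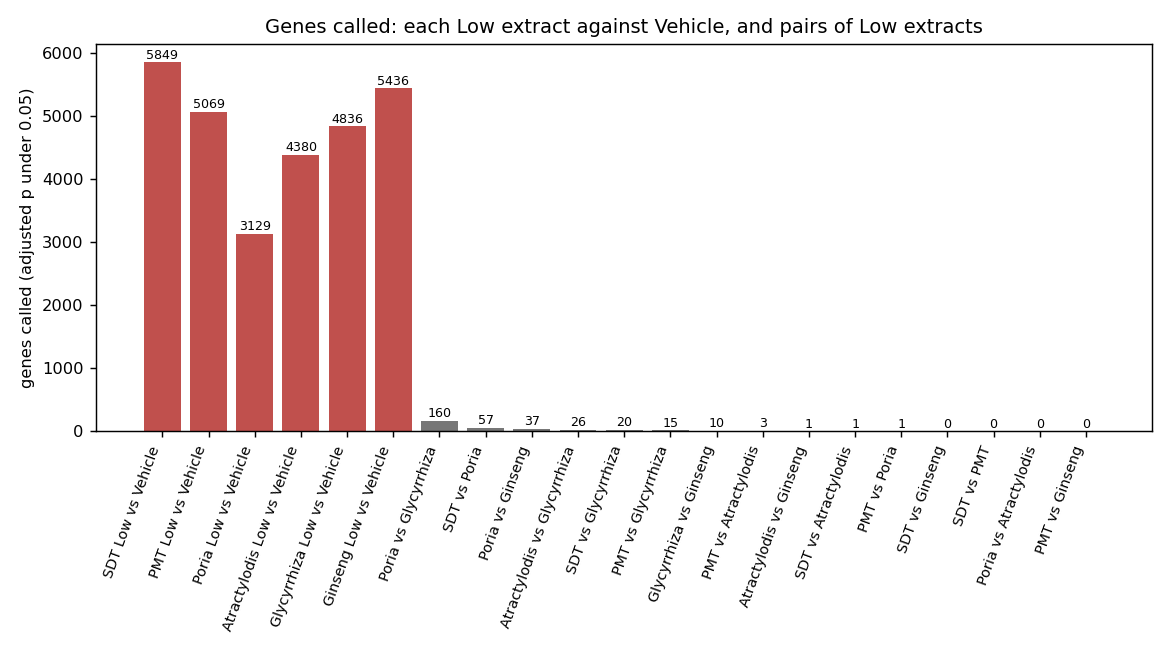
Bars count the genes called at adjusted p under 0.05 in each Low extract against Vehicle (red, 6 comparisons) and in each of the 15 pairs of Low extracts (grey). The comparisons with Vehicle give 3129 to 5849 genes, and the pairs give 0 to 160.

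The smallest adjusted p among the Low extracts belonged to CYP1A1, BHLHE40 and UGT1A1. CYP1A1, the monooxygenase induced through the aryl hydrocarbon receptor, averaged 37.2 CPM in Glycyrrhiza and 9.32 to 13.8 CPM in the other 5 extracts, against 11.3 CPM in Vehicle (edgeR adjusted p among Low = 1.18e-17). UGT1A1, the bilirubin glucuronosyltransferase, was chosen after its values were seen and shares exons with its neighbours. It averaged 18 CPM in Glycyrrhiza and 11.8 to 13.9 CPM in the others, against 13.1 CPM of UGT1A1 in Vehicle (edgeR adjusted p among Low = 5.57e-08). BHLHE40, a repressor of the circadian clock that hypoxia also induces, averaged 68.5, 65.9, 47, 49.4, 74.9 and 68 CPM in SDT, PMT, Poria, Atractylodis, Glycyrrhiza and Ginseng, against 38.1 CPM in Vehicle. All 17 Low libraries of BHLHE40 lay above Vehicle, and both extracts of set 9 had lower means than the others, with 45.9 to 52.8 CPM in their replicates 2 and 3 (edgeR adjusted p among Low = 2.22e-10). GSTA1, a glutathione transferase, averaged 31.8 CPM in Poria and 21.6 CPM in Glycyrrhiza, against 37.8 CPM in Vehicle (edgeR adjusted p among Low = 0.00613); its reads may be shared with the related GSTA2.

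Other lists leaned lower or higher, were divided, or lay near the background of 21.1% higher and 21% lower. Autophagy and lysosome genes had 13 of 29 members lower (44.8%) and 2 higher (6.9%), with a median of -0.06. ATP6V1H, a subunit of the proton pump of lysosomes, had 15.4 to 19 CPM in Low, and 23.2, 23.3 and 21.2 CPM in Vehicle, and fell by 0.38 with no overlap (SE 0.05, edgeR adjusted p = 4.69e-08). Genes of the integrated stress response had 10 of 24 lower and 6 higher (median -0.03), but 8 lower and 7 higher with length and GC content modelled (median 0.04). Among them, ATF3, a stress-induced transcription factor, fell by 0.54, and SLC3A2, the heavy chain of amino acid transporters, fell by 0.46. Clock genes had 8 of 17 higher (47.1%) and 2 lower (11.8%), with a median of 0.13. SR proteins and splicing regulators had 16 of 33 higher and 10 lower (median 0.02), but 10 higher and 13 lower with length and GC content modelled (median -0.03). SRRM1, a splicing coactivator, had 112 to 174 CPM in Low, and 89.3, 89.2 and 96.6 CPM in Vehicle, and rose by 0.50 (edgeR adjusted p = 3.57e-07).

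Interferon-stimulated genes had 5 of 23 members higher and 4 lower, and p53 targets had 5 of 25 higher and 7 lower. Drug metabolism genes of PXR and CAR had 3 of 12 higher and 3 lower, and acute phase genes had 4 of 15 higher and 4 lower. Zinc finger genes, a large family with many repressors, had 107 of 448 higher and 59 lower (median 0.05). Replication-dependent histones, whose messages lack a poly(A) tail, had 0 of 28 higher and 4 lower (median -0.07). Their share of counts was 0.00436% to 0.00527% in Low, and 0.00554%, 0.00534% and 0.00522% in Vehicle (exact permutation test, adjusted p = 0.00526). The difference of -0.000676 percentage points was -0.000533 with mitochondrially encoded genes left out of the total. The unadjusted exact permutation p was 0.00351 before and 0.0263 after that change.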

How the data were processed

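Polyadenylated RNA of HepG2 cells was sequenced as 100 bp paired reads from directional MGIEasy libraries, per the labels' protocols. FastQC 0.11.9, Trim Galore 0.6.5, STAR 2.7.3a, RSEM 1.3.3 and the build GRCh38 (hg38) are named in the submitters' processing notes; annotation release and strand setting are not given in the sources used here. The authors deposited expected counts per gene, not normalised. The other 210 columns of the table were not used.

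Expected counts were rounded to whole numbers, filtered with filterByExpr (16284 genes kept) and scaled by TMM. The quasi-likelihood test of edgeR 4.0.16 (R 4.3.3), with p-values adjusted by Benjamini-Hochberg and a threshold of 0.05, was run in a model with a coefficient for each of 19 groups (54 libraries). The fit's common dispersion of 0.00317 corresponds to a 5.6% coefficient of variation between replicates. Total counts were 19057230 to 30527396 in Low and 27390854 to 29913389 in Vehicle. Levels are CPM, computed with the TMM factors. The contrast is the mean of the 6 Low coefficients minus Vehicle, so a positive log2 fold change means higher in Low. Shares of counts were compared by exact two-sided permutation tests. DESeq2 1.42.0 was an alternative. Smooth trends of exonic length and GC content (GENCODE 29) were fitted per library with mgcv 1.9.3. Log2 values per library and length correlations used a pseudocount of 0.5; the correlations used genes of at least 5 CPM. On simulated data for Low against Vehicle (16026 genes, 50 genes changed per fold), the test recovered 96% of genes changed 1.25-fold and 98% at 1.5-fold. It recovered 100% at 2-fold and at 3-fold, and 5.29% of its calls were unchanged genes. The changed genes were few and were drawn from those of at least 5 CPM. The simulated libraries were independent, without differences by set, length or GC content. These percentages therefore do not carry over to the 6845 calls or to genes of lower abundance.

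The members, the 50 gene lists and the tests were chosen with earlier results of these data known. Named genes are the 8 largest rises and 8 largest falls among called protein-coding genes of at least 5 CPM without overlap between groups, the 4 called members of each described list with the largest change, and a few noncoding RNAs. Genes outside this rule are said to be chosen after their values were seen. Promoter windows are from RefSeq (GRCh38.p14).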

Additional observations from a re-analysis of the deposited data

Results flagged for a closer look

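Differences between extracts at the same dose were tested among the 6 Low groups without any Vehicle library, and 4 of the genes that differed are listed here. UGT1A1 and SOX9, described above, passed the same test. CYP1A1 differed among extracts with an edgeR adjusted p of 1.18e-17, with means of 12.2, 13.8, 11.9, 10.7, 37.2 and 9.32 CPM in SDT, PMT, Poria, Atractylodis, Glycyrrhiza and Ginseng, against 11.3 CPM in Vehicle. BHLHE40 differed with an edgeR adjusted p of 2.22e-10, with the lowest means of 47 CPM in Poria and 49.4 CPM in Atractylodis. GSTA2, a glutathione transferase, differed with an edgeR adjusted p of 0.000135, and its means were 11.4, 11.6, 15.4, 12.3, 9.75 and 11.9 CPM in the same order, against 14 CPM in Vehicle. GSTA1 differed with an edgeR adjusted p of 0.00613 and had means of 24.4, 25.1, 31.8, 27.9, 21.6 and 24.6 CPM, against 37.8 CPM in Vehicle. GSTA1 and GSTA2 are related copies with similar sequences, whose reads cannot be assigned with certainty.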

How the results depend on the processing

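The number of genes that differed between Low and Vehicle ran from 5001 to 7083 over 35 alternatives, against 6845. It was 5001 to 6028 without 1 Vehicle library, 6616 to 7083 without 1 Low library, 6521 to 7008 without 1 extract, 6543 with length and GC offsets, 6362 with DESeq2 and 6978 without Poria Low 1, Atractylodis Low 1 and Poria Low 3, a choice made after seeing the data. Of 6298 values of 180 named genes under these alternatives, 6241 kept direction and side of the threshold, 57 in 22 genes lost the threshold and 0 reversed. Counts without 1 library ranged from 2990 to 5252 for set 9, 2735 to 4781 for PMT, 1657 to 3701 for Poria and 2888 to 4046 for Atractylodis. The 331 calls over pairs of Low extracts became 3625 with no filter on low counts, 89 with only Low and Vehicle libraries in the fit, 184 without the 3 libraries, 1419 with DESeq2 and 172 to 1752 without 1 library. The 81 genes that differed among the Low extracts became 1069, 13, 44, 423 and 15 to 229 in the same settings, so these small counts depend on the fit; the cause was not tested. With a replicate block the comparison of Low with Vehicle gave 6923 genes, pairs 457 and the test among Low 114. Same-numbered libraries of different groups correlated from -0.384 to 0.485 (median 0.04, 21 of 57 pairs over 0.1), so the numbers were not treated as pairs in the comparison with Vehicle. Within set 9, Poria and Atractylodis libraries of the same number correlated at 0.485, 0.243 and 0.382. Those of Glycyrrhiza and Ginseng correlated at -0.217, -0.011 and 0.045, and those of SDT and PMT at 0.25 and 0.227. Set 9 against Vehicle gave 4916 genes with the block, against 4785. The block fits 1 effect per replicate number, shared by all groups, so it cannot test a dependence within set 9 alone. The Vehicle group of 3 libraries limits the precision of every comparison with it.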
